A study of Homo sapiens with 27 samples.

Results

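The genes described here are 36 genes of sterol and fatty-acid synthesis, chosen by name as a functional module and read from a table of 13523 genes. All 36 were in the table and all 36 passed the filter on low values, among 13052 genes tested. They comprise 18 sterol-synthesis enzymes (7 of the mevalonate pathway and 11 that lead from farnesyl diphosphate to cholesterol), 7 genes of sterol control and transport, and 11 fatty-acid genes (4 from acetyl-CoA to palmitate, 5 for desaturation and elongation, and 2 for acyl-CoA and phosphatidate).

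The cells were 501mel, a human melanoma line with high MITF, and RNA was read at transcript 3′ ends (QuantSeq Forward), so that a read stands for a transcript whatever its length. Unedited cells (WT) were kept as untreated controls, for 12 h in HBSS, a balanced salt solution lacking amino acids, or for 12 h with 250 nM of the mTOR kinase inhibitor Torin. Cells edited with Cas9 protein and guide RNA to lose TFE3 (TFE3 KO), TFEB (TFEB KO) or both (DKO) were kept as controls or given Torin at that dose and time. The labels give a time of 12 h for the edited controls and none for the WT controls. The part of this in comparisons of edited with WT controls was not tested. Each of the 9 groups was labelled with 3 libraries. TFE3 and TFEB are MITF-related transcription factors whose build-up in the nucleus is restrained by mTORC1. In 501mel cells without Torin the study saw some TFEB in the nucleus and TFE3 mostly there, and Torin raised both. Each edited genotype was 1 clone, so that clone and genotype cannot be told apart. The labels do not say whether replicates were separate cultures, and p-values measure the spread between these libraries.

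The library labelled WT HBSS replicate 3 and the library labelled WT Torin replicate 1 held the same value in all 13523 genes. They were left out of both groups, which left 25 libraries, with n = 2 for WT HBSS and WT Torin and n = 3 elsewhere. The identical column had a read in 12917 genes. The WT HBSS libraries used had a read in 12895 and 12901 genes, and the WT Torin libraries used in 13188 and 13181. Which treatment the identical column came from was not tested. Depth was 4147050 to 6526392 reads per library. The Torin libraries of WT (4147050 to 4204431 reads) and of TFE3 KO (4528920 to 4800843) were shallower than their controls (4999599 to 6251213 and 5709602 to 6526392), and the part of depth in the Torin results was not tested. All 7 melanocyte lineage markers were in the table, with PMEL at 1938 to 4464, whereas 8 of the 9 markers listed for keratinocytes, fibroblasts, leukocytes and endothelium were not in it and COL1A1 was at 0 to 5.06. TFE3 read 23.8 to 24.3 in WT controls and 5.06 to 7.59 in TFE3 KO and 5.93 to 6.86 in DKO controls, and TFEB read 2.34 to 3.96 in WT and 0.75 to 1.66 in TFEB KO controls. TFEB was also low in TFE3 KO controls, at 0.177 to 1.56. With Torin, TFE3 read 9.13 to 14 in TFE3 KO and 6.15 to 8.46 in DKO against 17.5 to 20.4 in WT, and TFEB read 0.611 to 3.45 in TFEB KO, which overlaps the WT controls, against 4.27 to 5.63 in WT. In WT HBSS, TFEB read 28 to 30.4 and MITF 1392 to 1454, against 719 to 788 for MITF in WT controls, and their part in the HBSS results was not tested. A 3′ read does not test whether the edited transcript still encodes a protein.

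Cholesterol and fatty acids are both built from acetyl-CoA. The sterol branch condenses acetyl-CoA to mevalonate, isoprenoids and squalene, closes the ring to lanosterol and trims it to cholesterol, and the fatty-acid branch makes palmitate and then desaturates and lengthens it. Transcription of both branches is driven by the SREBP factors, which SREBF1 and SREBF2 encode as membrane-bound precursors. SCAP escorts the precursors to the Golgi for cleavage, INSIG1 and INSIG2 hold them in the endoplasmic reticulum when sterol is abundant, and mTORC1 is known to promote their activity. SREBP binds short sterol regulatory elements, often beside a CCAAT box bound by NF-Y, and TFE3, TFEB and MITF bind E-boxes with the core CACGTG.

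Promoter letters are shown for 5 genes on which the results turn, to show where motifs known for these factors lie near their start sites. These genes did not all move alike. The windows are from RefSeq on GRCh38.p14, run 5′ to 3′ on the gene's strand and hold 300 bases each around an annotated start site. Capitals mark motif matches on either strand. TCACNCCAC stands for a sterol regulatory element. The NF-Y box is CCAAT. On the other strand of a promoter it reads ATTGG in these lines. The E-box core searched was CACGTG. Its longer form, which contains the core, was TCACGTGA. The windows are chr22:41832855-41833154 (+ strand, SREBF2), chr7:155297628-155297927 (+ strand, INSIG1), chrX:152830813-152831112 (+ strand, NSDHL, a sterol demethylation enzyme), chr11:71448344-71448643 (- strand, DHCR7, which reduces 7-dehydrocholesterol to cholesterol) and chr5:43313363-43313662 (- strand, HMGCS1, which makes HMG-CoA).
SREBF2: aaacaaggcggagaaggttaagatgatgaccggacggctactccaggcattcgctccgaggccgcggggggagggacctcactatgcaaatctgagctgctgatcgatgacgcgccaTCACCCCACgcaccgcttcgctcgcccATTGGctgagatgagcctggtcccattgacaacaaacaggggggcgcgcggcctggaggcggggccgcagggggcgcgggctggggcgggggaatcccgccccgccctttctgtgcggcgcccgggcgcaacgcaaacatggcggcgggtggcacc
INSIG1: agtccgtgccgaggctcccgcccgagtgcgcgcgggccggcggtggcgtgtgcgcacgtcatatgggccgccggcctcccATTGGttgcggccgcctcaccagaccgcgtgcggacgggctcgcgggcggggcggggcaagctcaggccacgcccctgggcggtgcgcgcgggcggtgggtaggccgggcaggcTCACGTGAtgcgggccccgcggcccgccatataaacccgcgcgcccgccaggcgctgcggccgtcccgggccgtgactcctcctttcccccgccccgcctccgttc
NSDHL: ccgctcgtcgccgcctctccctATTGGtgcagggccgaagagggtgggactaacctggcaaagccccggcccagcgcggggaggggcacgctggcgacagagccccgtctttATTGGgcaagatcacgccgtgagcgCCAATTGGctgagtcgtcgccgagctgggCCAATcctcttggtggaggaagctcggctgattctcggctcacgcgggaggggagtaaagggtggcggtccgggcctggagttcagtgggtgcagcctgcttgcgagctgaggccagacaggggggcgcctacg
DHCR7: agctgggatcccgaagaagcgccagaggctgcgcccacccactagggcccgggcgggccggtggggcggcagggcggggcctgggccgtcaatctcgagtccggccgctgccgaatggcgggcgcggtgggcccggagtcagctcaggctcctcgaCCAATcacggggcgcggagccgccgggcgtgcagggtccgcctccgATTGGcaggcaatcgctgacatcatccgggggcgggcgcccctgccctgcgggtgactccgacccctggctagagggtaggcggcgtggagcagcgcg
HMGCS1: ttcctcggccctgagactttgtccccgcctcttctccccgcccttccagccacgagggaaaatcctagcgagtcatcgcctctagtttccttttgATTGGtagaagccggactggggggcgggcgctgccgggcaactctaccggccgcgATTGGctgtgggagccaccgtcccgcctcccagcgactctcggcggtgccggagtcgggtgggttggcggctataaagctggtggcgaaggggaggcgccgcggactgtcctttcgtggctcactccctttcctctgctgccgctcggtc

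SREBF2 was the only member with the 9-letter sterol element match, which started at -133 from the start site, with a CCAAT match at -106. INSIG1 was the only member with the 8-letter E-box, at -56, and it had a CCAAT match at -170. NSDHL had 5 CCAAT matches, of which the pair at -113 and -110 share bases, DHCR7 had 2 at -94 and -48, and HMGCS1 had 2 at -155 and -100. RefSeq windows matched 32 of the 36 members, in 45 windows. No window matched ACAT2, FDFT1, SQLE or FASN. CCAAT was in 28 of the 45 windows (62.2%) and in 34.6% of all 35116 windows, and by gene it was in 13 of 15 sterol-synthesis enzymes, 4 of 7 control and transport genes and 7 of 10 fatty-acid genes. The E-box was in 6 windows (13.3%, against 7.26% of all windows), the sterol element in 1 (2.22%, against 1.13%) and the 8-letter E-box in 1 (2.22%, against 0.98%). By gene the E-box was in 5 of 32 members, as overlapping windows of SC5D hold the same site. Overlapping windows of SC5D and of ACLY also repeat CCAAT sites. No share by gene was computed over all genes. These shares are descriptions of letters, and binding was not measured.

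Levels are normalised read counts in a unit close to CPM, of which 3 reads make up 0.46 to 0.711 according to the library. In WT controls the members ranged from 3.43 for HSD17B7 to 504 for SCD, the desaturase that makes oleate. A log2 fold change is the limma estimate on log2(value + 1), given with its standard error, and a gene passed the test when its Benjamini-Hochberg adjusted p from limma over all genes was under 0.05. On hg38, GENCODE places HMGCS1 at chr5:43287470-43313512 (- strand), INSIG1 at chr7:155297776-155310235 (+ strand), SCD at chr10:100347233-100364826 (+ strand) and LPIN1 at chr2:11677595-11827409 (+ strand). In these bulk samples less RNA per cell and fewer cells with it cannot be told apart. The plot of fold changes by gene and comparison shows the 36 members in order of role.

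**Figure D1:**
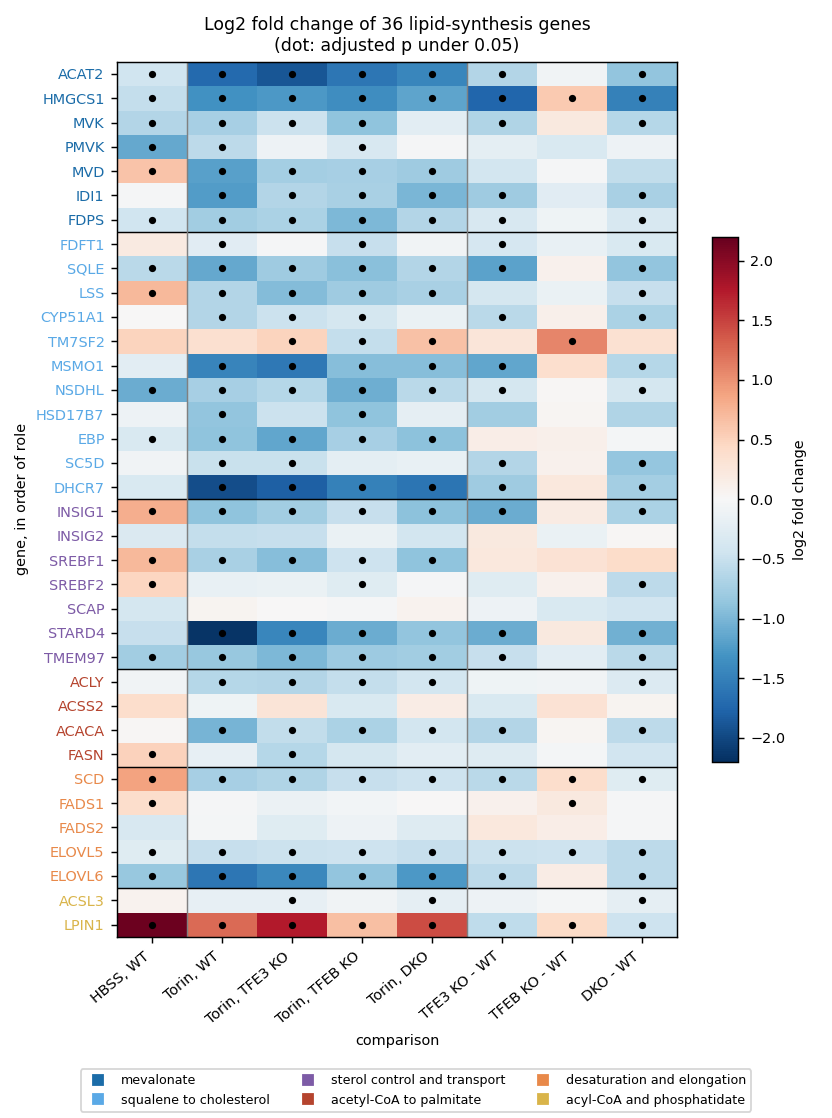
Log2 fold change (colour, red higher and blue lower) of the 36 genes (rows, in order of role, with the role given by label colour) in 8 comparisons (columns), with a dot where the adjusted p was under 0.05. The 4 Torin columns are blue for most genes with LPIN1 red in each, and the HBSS column holds both colours.

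The first comparison was HBSS against control in WT, in which members moved in both directions. HBSS lacks amino acids, but the growth medium held serum and whether the HBSS did is not given in the sources used here, so that loss of amino acids and loss of serum lipids cannot be told apart in any HBSS value. LPIN1, the phosphatidate phosphatase of glycerolipid synthesis, and SCD rose, as did the sterol sensors and regulators INSIG1, SREBF1 and SREBF2, whereas the early and middle sterol enzymes PMVK, NSDHL, SQLE and HMGCS1 fell. Of the 36 members 9 rose (25.0%) and 11 fell (30.6%), near the 23.6% and 24.7% of all genes tested, so that the count of members past the test was close to that of other genes. At a log2 fold change of at least 1 in either direction, 3 members passed (8.33%), against 13.1% of all genes.

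LPIN1 read 45, 54.8 and 47.6 in the control libraries and 209 and 232 in HBSS. Both HBSS libraries were far above all 3 controls, and the log2 fold change was 2.15 ± 0.13 (limma adjusted p 6.71e-19). SCD read 481, 515 and 516 in controls and 946 and 923 in HBSS, a log2 fold change of 0.89 ± 0.07 (limma adjusted p 1.60e-14). INSIG1, which retains the SREBP precursors, read 73.3, 59 and 65 in controls and 115 and 114 in HBSS (0.80 ± 0.14, limma adjusted p 3.68e-06). The HBSS libraries of these genes did not overlap their controls. SREBF2 read 88.1, 95.6 and 96 in controls and 133 and 128 in HBSS (0.48 ± 0.10). SREBF1 read 11.8, 9.9 and 12.7 in controls and 16.3 and 23 in HBSS (0.72 ± 0.21), and without WT HBSS replicate 2 it no longer passed (limma adjusted p 0.136). FASN, the fatty-acid synthase, read 179, 282 and 264 in controls and 334 and 339 in HBSS (0.50 ± 0.19, limma adjusted p 0.0349). FASN lost its call with the replicate number as a block (limma adjusted p 0.0541), without WT control replicate 1 (0.134), without WT HBSS replicate 1 (0.11) and without WT HBSS replicate 2 (0.125). LSS, which forms lanosterol, read 17.4, 20.4 and 27.1 in controls and 38.4 and 33.1 in HBSS (0.72 ± 0.20), against the direction of most enzymes around it.

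Among the members that fell, PMVK, the phosphomevalonate kinase, read 55.2, 47.9 and 48.2 in controls and 18.6 and 27 in HBSS (-1.13 ± 0.15, limma adjusted p 2.42e-08). NSDHL read 63.8, 64.7 and 64 in controls and 29 and 29.9 in HBSS (-1.10 ± 0.14). ELOVL6, which lengthens palmitate, read 67.7, 65.3 and 70.3 in controls and 36.1 and 38.7 in HBSS (-0.84 ± 0.14), and TMEM97, a sterol-responsive membrane protein, fell by 0.76 on the log2 scale. The control and HBSS libraries of these members were apart. HMGCS1 read 438, 459 and 465 in controls and 299 and 329 in HBSS (-0.53 ± 0.09), and SQLE, the squalene epoxidase, read 93.3, 102 and 101 in controls and 64.9 and 66.3 in HBSS (-0.59 ± 0.12).

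By role, 5 of 7 mevalonate genes fell and 1 (MVD) rose, 3 of 11 genes from squalene to cholesterol fell and 1 (LSS) rose, 3 of 7 control and transport genes rose and 1 fell, and 4 of 11 fatty-acid genes rose and 2 fell. The median log2 fold change was -0.28 over the 18 sterol-synthesis enzymes and 0.08 over the 11 fatty-acid genes, with -0.03 over all genes tested. CYP51A1, the lanosterol demethylase, read 127, 126 and 133 in controls and 132 and 127 in HBSS, with overlapping libraries. Of the 20 calls, 6 were lost without 1 library (MVK, MVD, EBP, SREBF1, FASN and ELOVL5), and 14 passed whichever library was left out. MVD also lost its call (limma adjusted p 0.075) when the identical column was kept as WT HBSS replicate 3. With that column kept so, 22 members passed in place of 20.

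**Figure D2:**
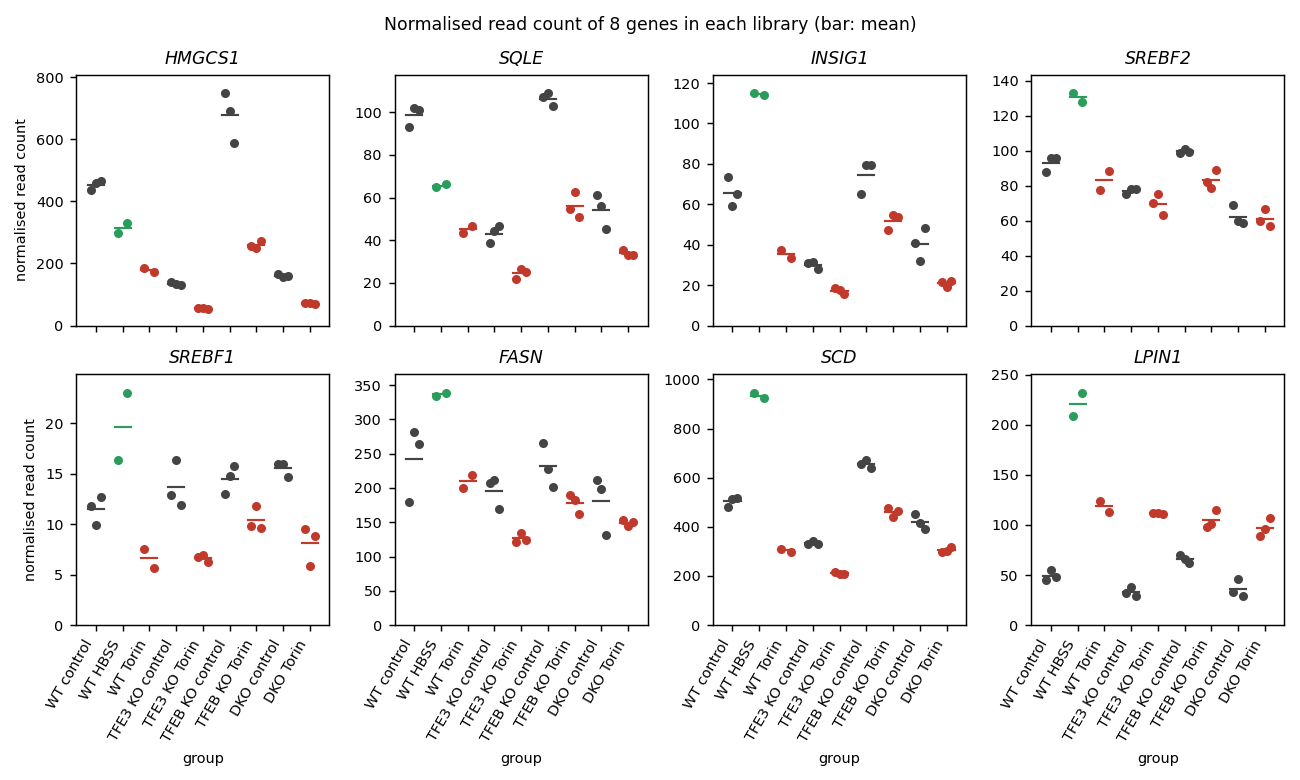
Normalised read count (vertical axes from 0) of 8 genes in each of 25 libraries (points) by group, with the group mean as a bar, in dark grey for controls, green for HBSS and red for Torin. INSIG1, SREBF2, SCD and LPIN1 are highest in WT HBSS, and HMGCS1 reads 131 to 166 in each control library of TFE3 KO and DKO.

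Torin against control in WT lowered most of the module. The sterol carrier STARD4, the terminal sterol reductase DHCR7, the acetoacetyl-CoA thiolase ACAT2 and ELOVL6 fell the furthest, and LPIN1 was the only member that rose. Of the 36 members 26 fell (72.2%, against 23.4% of all genes) and 1 rose (2.78%, against 20.5%), and 11 passed at a log2 fold change of at least 1 in either direction (30.6%, against 9.66%). WT HBSS and WT Torin were compared with the same 3 control libraries.

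DHCR7 read 61.6, 64.5 and 71 in controls and 15.9 and 16.6 in Torin, so that the groups were far apart (log2 fold change -1.95 ± 0.16, limma adjusted p 1.98e-14). ACAT2 read 203, 172 and 197 in controls and 51.1 and 64.2 in Torin (-1.71 ± 0.10, limma adjusted p 3.64e-19). STARD4 was low throughout, at 13.1, 9.9 and 9.37 in controls and 1.88 and 1.42 in Torin (-2.15 ± 0.29). ELOVL6 read 21.6 and 22 in Torin, below the 65.3 to 70.3 of its controls (-1.59 ± 0.14). HMGCS1 read 187 and 171 in Torin, less than in either HBSS library (-1.34 ± 0.09), and SQLE read 43.4 and 46.7 (-1.12 ± 0.12). INSIG1 read 37.3 and 33.2 in Torin (-0.88 ± 0.14) and SCD read 311 and 297 (-0.73 ± 0.07, limma adjusted p 1.46e-11). These 4 genes lay below every control library. SREBF1 read 7.5 and 5.69 in Torin (-0.72 ± 0.21), and without WT Torin replicate 3 it did not pass (limma adjusted p 0.0964). SREBF2 read 77.8 and 88.4 (-0.17 ± 0.10, limma adjusted p 0.188) and FASN read 200 and 219 (-0.18 ± 0.19, limma adjusted p 0.474), and both overlapped their controls. LPIN1 read 124 and 113 in Torin (1.25 ± 0.13, limma adjusted p 2.94e-11), above all controls and below both HBSS libraries.

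All 7 mevalonate genes fell with Torin in WT, as did 10 of 11 genes from squalene to cholesterol, 4 of 7 control and transport genes and 5 of 11 fatty-acid genes. The exception among the enzymes was TM7SF2, a sterol reductase with a same-strand overlapping gene, at 0.35 ± 0.24 (limma adjusted p 0.231). The median log2 fold change was -0.81 over the sterol-synthesis enzymes and -0.18 over the fatty-acid genes, with 0.00 over all genes. FADS1 and FADS2, the desaturases of polyunsaturated fatty acids, and ACSS2, the acetyl-CoA synthetase, had log2 fold changes of -0.02, -0.04 and -0.10, and their libraries overlapped. The difference between the medians was -0.63, and without WT control replicate 1 it was -0.41. Without 1 library FDFT1, LSS, HSD17B7 and SREBF1 lost their calls and 23 did not. With the identical column kept as WT Torin replicate 1, 20 members passed in place of 27, and FDFT1, LSS, SC5D, INSIG1, SREBF1, ACACA and SCD lost their calls.

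**Figure D3:**
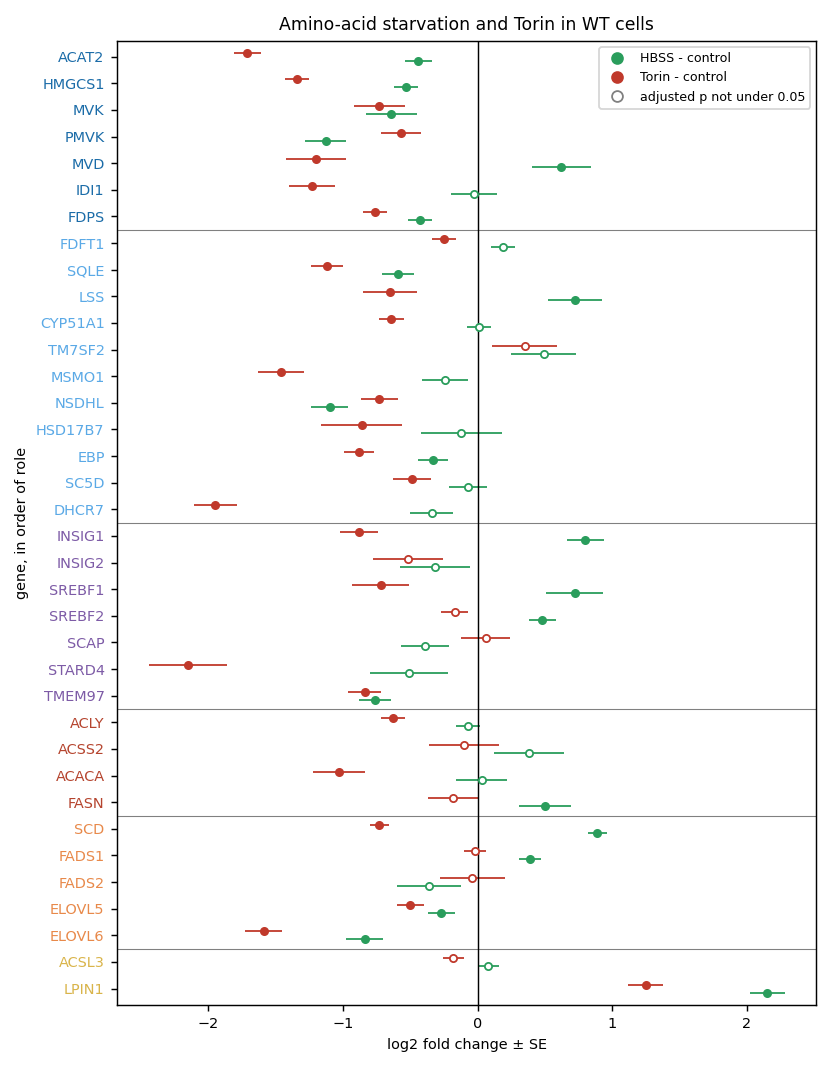
Log2 fold change against the WT control (points, with the standard error as lines) for HBSS (green) and Torin (red) in WT cells, with genes in rows by role and open points where the adjusted p was not under 0.05. INSIG1, SREBF1, SCD, MVD and LSS lie on opposite sides of 0 in HBSS and Torin, and LPIN1 lies above 0 in both.

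The direct comparison of HBSS with Torin in WT gave the difference between the treatments itself. Of the 36 members 25 were higher in HBSS (69.4%, against 26.1% of all genes) and 2 were lower (5.56%, against 23.1%), and 11 passed at a log2 difference of at least 1 in either direction (30.6%, against 16.6%). The highest differences were those of the mevalonate decarboxylase MVD (1.82 ± 0.24), INSIG1 (1.67 ± 0.15), STARD4 (1.64 ± 0.32) and SCD (1.62 ± 0.08, limma adjusted p 5.24e-22). MVD read 33.4 and 24.9 in HBSS and 5.86 and 9.48 in Torin. SREBF1 (1.44 ± 0.23), LPIN1 (0.89 ± 0.14), HMGCS1 (0.81 ± 0.09), FASN (0.68 ± 0.21), SREBF2 (0.65 ± 0.11) and SQLE (0.53 ± 0.13) were also higher in HBSS. PMVK (-0.56 ± 0.17) and NSDHL (-0.37 ± 0.15) were lower in HBSS than in Torin.

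The medians of this comparison were 0.61 for sterol-synthesis enzymes and 0.57 for fatty-acid genes, a difference of 0.04. That difference had no stable sign, at 0.19 without WT Torin replicate 3, -0.06 without WT Torin replicate 2 and -0.03 without either HBSS library. PMVK, FDPS, NSDHL, SC5D, FASN and ACSL3 lost their calls without 1 library. For PMVK this was WT HBSS replicate 1 (limma adjusted p 0.228) and for FASN it was WT Torin replicate 2 (0.0663). NSDHL lost its call without WT HBSS replicate 1 (0.127), without WT HBSS replicate 2 (0.0833) and without WT Torin replicate 3 (0.217). With the identical column kept as WT Torin replicate 1, 15 members passed in place of 27. With it kept as WT HBSS replicate 3, 28 passed.

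Torin was next compared with control within each edited genotype. Most of the module fell in all of them, and whether the fall needs TFE3 or TFEB was not tested. In TFE3 KO, 25 members fell (69.4%, against 26.0% of all genes) and 2 rose (5.56%, against 25.4%), with 8 past a log2 change of 1 in either direction (22.2%, against 11.7%). In TFEB KO, 27 fell (75.0%, against 21.0%) and 1 rose (2.78%, against 17.4%), with 5 past that limit (13.9%, against 5.02%). In DKO, 21 fell (58.3%, against 26.2%) and 2 rose (5.56%, against 25.4%), with 5 past it (13.9%, against 11.1%).

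ACAT2 fell in each genotype, from 119 to 125 in TFE3 KO controls to 31.4 to 33.5 with Torin (-1.88 ± 0.09), from 179 to 185 to 55 to 62.9 in TFEB KO (-1.59 ± 0.09) and from 103 to 104 to 36.6 to 39.4 in DKO (-1.44 ± 0.09, limma adjusted p 1.36e-18). DHCR7 fell by 1.79 in TFE3 KO, by 1.49 in TFEB KO and by 1.61 in DKO on the log2 scale. HMGCS1 read 140, 134 and 131 in TFE3 KO controls and 55.8, 56.8 and 53.9 with Torin (-1.27 ± 0.08). In TFEB KO it read 749, 693 and 589 and then 255, 250 and 274 (-1.37 ± 0.08), and in DKO 166, 157 and 160 and then 71.5, 73.4 and 69.3 (-1.16 ± 0.08). The Torin libraries of HMGCS1 were below the controls of their genotype in all 3 cases. MSMO1, a sterol methyl oxidase, fell from 20 to 26.8 in TFE3 KO controls to 6.03 to 8.24 with Torin (-1.57 ± 0.15), and ELOVL6 fell by 1.41 in TFE3 KO, 0.86 in TFEB KO and 1.27 in DKO. STARD4 fell by 1.44, 1.09 and 0.87 in these genotypes, on counts that reached 0.416 to 2.45 with Torin in TFE3 KO, so that the added 1 draws its fold changes towards 0.

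SQLE fell by 0.79 in TFE3 KO, 0.92 in TFEB KO and 0.65 in DKO, and INSIG1 fell by 0.77, 0.51 and 0.90. SCD read 329, 342 and 332 in TFE3 KO controls and 218, 208 and 209 with Torin (-0.66 ± 0.06), and its log2 fold change was -0.51 ± 0.06 in TFEB KO and -0.45 ± 0.06 in DKO. SREBF1 fell by 0.93 in TFE3 KO and 0.88 in DKO. In TFEB KO its fold change of -0.45 ± 0.18 (limma adjusted p 0.0497) did not pass without TFEB KO control replicate 2 (0.108) or 3 (0.143), without TFEB KO Torin replicate 1 (0.124) or 3 (0.14), or on recovered reads with edgeR (0.0731) or DESeq2 (0.0867). SREBF2 passed in TFEB KO (-0.26 ± 0.09, limma adjusted p 0.0214), where its call was lost without TFEB KO control replicate 2 (0.0565) or TFEB KO Torin replicate 1 (0.0559) or 2 (0.0953). In TFE3 KO and DKO SREBF2 had fold changes of -0.15 ± 0.09 and -0.03 ± 0.09. FASN passed in TFE3 KO, at 208, 212 and 169 in controls and 121, 135 and 124 with Torin (-0.62 ± 0.17, limma adjusted p 0.00507), and its fold changes were -0.38 ± 0.17 in TFEB KO and -0.24 ± 0.17 in DKO (limma adjusted p 0.0885 and 0.24).

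LPIN1 rose with Torin in all genotypes. It read 32, 38 and 29 in TFE3 KO controls and 112, 112 and 111 with Torin (1.74 ± 0.11, limma adjusted p 1.35e-17), 69.7, 66.3 and 62 and then 98.3, 101 and 115 in TFEB KO (0.66 ± 0.11), and 32.6, 46 and 29.4 and then 88.5, 96 and 107 in DKO (1.43 ± 0.11). Its Torin levels lay between 88.5 and 124 over the 4 genotypes while its control levels lay between 29 and 69.7. TM7SF2 moved in either direction by genotype, with log2 fold changes of 0.49 ± 0.21 in TFE3 KO, -0.53 ± 0.21 in TFEB KO and 0.65 ± 0.21 in DKO, at levels of 3.76 to 11.2. Its call was lost without 1 library in each of these genotypes. In TFE3 KO this held for each of its controls and for Torin replicates 1 and 3 (limma adjusted p 0.0516 to 0.199), in TFEB KO for each of its controls and for Torin replicates 1 and 2 (0.0736 to 0.158), and in DKO for control replicate 3 and Torin replicate 2 (0.0942 and 0.059).

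Over the 4 genotypes, WT included, 20 members fell with Torin in all 4, 2 in 3, 5 in 2 and 3 in 1, and 6 fell in none. The share of all genes that fell in all 4 was not computed, so that these counts cannot be set against it. The 20 were 11 sterol-synthesis enzymes (ACAT2, HMGCS1, MVD, IDI1, FDPS, SQLE, LSS, MSMO1, NSDHL, EBP and DHCR7), 4 control and transport genes (INSIG1, SREBF1, STARD4 and TMEM97) and 5 fatty-acid genes (ACLY, ACACA, SCD, ELOVL5 and ELOVL6). The 6 were INSIG2, SCAP, ACSS2, FADS1, FADS2 and LPIN1. Sterol-synthesis enzymes had medians of -0.67 in TFE3 KO, -0.84 in TFEB KO and -0.65 in DKO, and fatty-acid genes of -0.48, -0.38 and -0.29, with 0.02, 0.00 and 0.02 over all genes. The Torin fold changes of the 36 members were correlated between genotypes with no shared library (Pearson r 0.80 to 0.96, Spearman rho 0.73 to 0.94). Over all 13052 genes r was 0.78 to 0.90 for these pairs, and these are correlations across genes, which are not independent replicates. Calls lost without 1 library numbered 4 in TFE3 KO, 5 in TFEB KO and 3 in DKO.

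The difference between the Torin response of an edited genotype and that of WT was tested as an interaction. In TFE3 KO no member passed (against 1.06% of all genes), with 4 members at an unadjusted p under 0.05 by limma and 0 members past the test by edgeR or DESeq2 on recovered reads. The share of all genes at that unadjusted p was not computed for any genotype. In TFEB KO 10 members had an unadjusted p under 0.05 by limma and 1 of 36 passed, 2.78% against 1.16% of all genes. It was ELOVL6, whose fall was smaller in TFEB KO (0.73 ± 0.19, limma adjusted p 0.0344). In DKO 8 members had an unadjusted p under 0.05 by limma and 1 of 36 passed, against 0.506% of all genes. It was CYP51A1, which read 77.9, 79.3 and 78.3 in DKO controls and 71.2, 70.7 and 70.6 with Torin, where WT went from 126 to 133 to 81.1 and 83 (0.50 ± 0.12, limma adjusted p 0.0399). Both calls lay near the threshold and were lost when single libraries were left out. ELOVL6 did not pass without WT control replicates 1 or 3, without either WT Torin library, or without TFEB KO control replicate 3 or TFEB KO Torin replicates 1 or 2 (limma adjusted p 0.0603 to 0.128). CYP51A1 did not pass without any 1 of the 11 libraries (0.0508 to 0.157). For the named genes the interaction in TFE3 KO, TFEB KO and DKO was 0.08, -0.03 and 0.18 for HMGCS1, 0.33, 0.20 and 0.47 for SQLE, 0.11, 0.37 and -0.02 for INSIG1, 0.07, 0.22 and 0.28 for SCD, and 0.48, -0.60 and 0.17 for LPIN1. It was -0.21, 0.27 and -0.16 for SREBF1, 0.01, -0.09 and 0.14 for SREBF2, and -0.44, -0.20 and -0.07 for FASN. None of these passed. In the same order the median interaction was 0.15, 0.13 and 0.31 over sterol-synthesis enzymes and 0.01, 0.04 and 0.17 over fatty-acid genes.

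Without drug, the TFE3 KO clone had lower levels of the sterol branch than WT. In TFE3 KO against WT controls 20 members fell (55.6%, against 5.84% of all genes) and 0 rose (against 3.57%). At a log2 fold change of at least 1, 5 passed (13.9%, against 1.52%). They were HMGCS1, SQLE, MSMO1, INSIG1 and STARD4. The comparison shares the WT controls with the Torin comparison in WT.

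HMGCS1 read 438, 459 and 465 in WT and 140, 134 and 131 in TFE3 KO (-1.74 ± 0.08, limma adjusted p 1.53e-23), the lowest log2 fold change of the module in this comparison. SQLE read 38.5, 44.3 and 46.6 in TFE3 KO against 93.3 to 102 in WT (-1.18 ± 0.11, limma adjusted p 6.63e-12). MSMO1 read 20, 21.9 and 26.8 against 49 to 56.4 (-1.14 ± 0.15), and INSIG1 read 31.1, 31.3 and 27.8 against 59 to 73.3 (-1.10 ± 0.12). The TFE3 KO libraries of these genes were below every WT control. STARD4 read 4.42, 5.06 and 3.9 against 9.37 to 13.1 (-1.10 ± 0.26), and SCD 329, 342 and 332 against 481 to 516 (-0.59 ± 0.06). LPIN1, which rose in HBSS and with Torin, was lower in TFE3 KO, at 32, 38 and 29 against 45 to 54.8 (-0.56 ± 0.11). SREBF1 and FASN overlapped WT (0.23 ± 0.18 and -0.28 ± 0.17), and SREBF2 read 75.1 to 78.4 against 88.1 to 96 (-0.27 ± 0.09, limma adjusted p 0.0518). Of the sterol-synthesis enzymes 12 of 18 fell, of control and transport genes 3 of 7 and of fatty-acid genes 5 of 11, with medians of -0.62 over the enzymes, -0.34 over the fatty-acid genes and 0.00 over all genes. The difference between the branch medians, -0.29, was -0.46 without WT control replicate 2, -0.45 without TFE3 KO control replicate 3, -0.13 without TFE3 KO control replicate 1 and -0.12 without WT control replicate 3. MVK, NSDHL and ACACA lost their calls without 1 library. MITF read 677 to 688 in TFE3 KO and 719 to 788 in WT controls, and its part in this comparison was not tested.

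TFEB KO differed from WT in 6 of the 36 members. In controls 5 rose (13.9%, against 7.46% of all genes) and 1 fell (2.78%, against 7.18%), with 1 past a log2 change of 1 (2.78%, against 1.67%). TM7SF2 read 10, 10.3 and 9.95 in TFEB KO against 3.76 to 4.68 in WT (1.07 ± 0.21, limma adjusted p 0.000342). HMGCS1 read 749, 693 and 589, above all WT controls (0.57 ± 0.08, limma adjusted p 4.76e-07), opposite to its direction in TFE3 KO. SCD read 656, 672 and 639 (0.38 ± 0.06) and LPIN1 69.7, 66.3 and 62 (0.42 ± 0.11). LPIN1 lost its call without WT control replicate 1 (limma adjusted p 0.0541). FADS1 rose by 0.22 ± 0.07, and its call was lost without WT control replicates 1 or 2 or TFEB KO control replicates 1 or 2 (limma adjusted p 0.0524 to 0.16). ELOVL5, a fatty-acid elongase, fell (-0.46 ± 0.09), as it did in the other edited genotypes. SQLE (0.10 ± 0.11), INSIG1 (0.18 ± 0.12), SREBF1 (0.32 ± 0.18), SREBF2 (0.10 ± 0.09) and FASN (-0.04 ± 0.17) did not pass. The medians were 0.07 over sterol-synthesis enzymes and 0.15 over fatty-acid genes.

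In DKO controls 24 members fell (66.7%, against 7.49% of all genes) and 0 rose (against 5.64%), and 2, HMGCS1 and STARD4, passed a log2 change of 1 (5.56%, against 1.82%). HMGCS1 read 166, 157 and 160 (-1.49 ± 0.08, limma adjusted p 8.09e-21), ACAT2 104, 103 and 103 (-0.87 ± 0.09) and SQLE 61.2, 56.3 and 45.5 (-0.86 ± 0.11), each below every WT control. STARD4 had a log2 fold change of -1.05 ± 0.26, INSIG1 of -0.70 ± 0.12, SREBF2 of -0.57 ± 0.09, SCD of -0.27 ± 0.06 and LPIN1 of -0.46 ± 0.11. SREBF2 read 68.7, 60.1 and 58.4, below the 88.1 to 96 of WT. LPIN1 lost its call without DKO control replicate 3 (limma adjusted p 0.0565), and 1 of its DKO libraries, at 46, overlapped WT. SREBF1 (0.41 ± 0.18) and FASN (-0.42 ± 0.17) did not pass (limma adjusted p 0.146 and 0.12). By branch 13 of 18 sterol-synthesis enzymes, 4 of 7 control and transport genes and 7 of 11 fatty-acid genes fell, with medians of -0.63 over the enzymes and -0.30 over the fatty-acid genes. MVK, LSS, NSDHL, ACACA, ACSL3 and LPIN1 lost their calls without 1 library. MITF, which binds E-boxes too, was at 532 to 596 in DKO and 719 to 788 in WT controls (-0.46 ± 0.06), and its part in these results was not tested.

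DKO against TFEB KO is a further contrast of cells with and without an intact TFE3 gene, and it shares no library with TFE3 KO against WT. It was added after the data were seen, as were the other comparisons between edited genotypes. Here 23 members fell (63.9%, against 13.7% of all genes) and 0 rose (against 11.8%). HMGCS1 was lowest again (-2.06 ± 0.08, limma adjusted p 1.38e-26), with 589 to 749 in TFEB KO and 157 to 166 in DKO, followed by STARD4 (-1.27 ± 0.26), MSMO1, which read 62.2 to 73.8 in TFEB KO and 28.2 to 37.9 in DKO, and DHCR7 (-0.99 ± 0.14). SQLE (-0.96 ± 0.11), INSIG1 (-0.88 ± 0.12), LPIN1 (-0.88 ± 0.11), SREBF2 (-0.67 ± 0.09) and SCD (-0.65 ± 0.06) fell, and SREBF1 (0.09 ± 0.18) and FASN (-0.38 ± 0.17) did not pass. In the contrast with WT and in this one 18 members passed in both, and the share of all genes that did so was not computed. All 18 fell in both, which follows from passing, as 0 members rose in either contrast. The fold changes of the 36 members had a Pearson r of 0.83 and a Spearman rho of 0.80 across genes, and r over all genes was 0.56. In DKO against TFEB KO 7 calls were lost without 1 library (MVD, IDI1, FDPS, TM7SF2, NSDHL, ACLY and FADS1). Each contrast sets 1 clone against another line, so that clonal differences cannot be told apart from TFE3 loss in either.

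**Figure D4:**
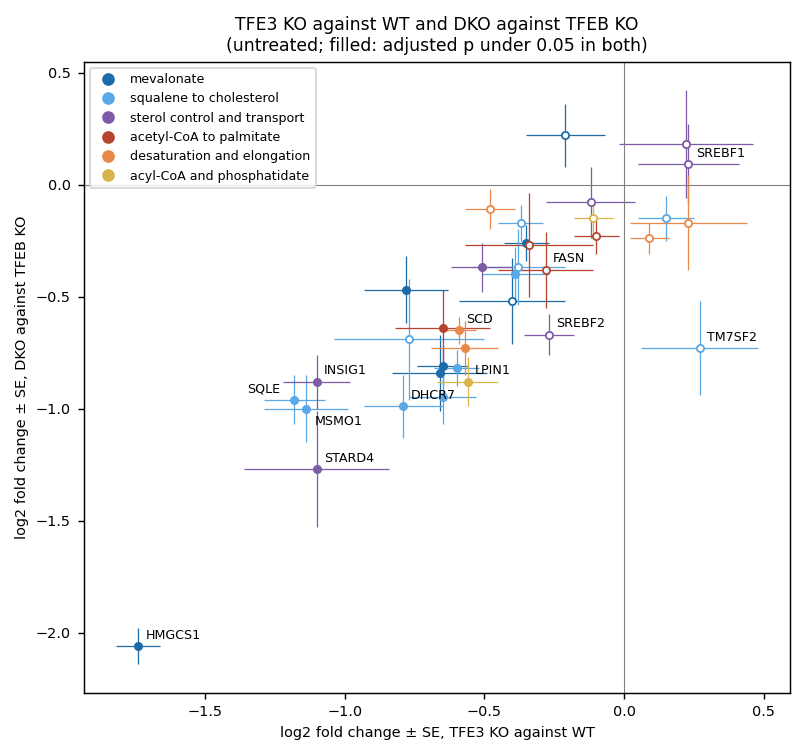
Log2 fold change of the 36 members in TFE3 KO against WT (horizontal) and in DKO against TFEB KO (vertical), untreated, with standard errors as lines, colour by role and filled points where the adjusted p was under 0.05 in both. The 18 filled points lie in the lower left, with HMGCS1 at -1.74 and -2.06.

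Set directly against each other, TFE3 KO and TFEB KO controls differed in 23 members, all lower in TFE3 KO (63.9%, against 15.6% of all genes), and 0 were higher (against 14.3%). The lowest were HMGCS1 (-2.31 ± 0.08, limma adjusted p 1.19e-28), MSMO1 (-1.51 ± 0.15), STARD4 (-1.32 ± 0.26), SQLE (-1.28 ± 0.11) and INSIG1 (-1.28 ± 0.12). LPIN1 (-0.99 ± 0.11), SCD (-0.97 ± 0.06) and SREBF2 (-0.36 ± 0.09) were lower too, and SREBF1 (-0.09 ± 0.18) and FASN (-0.24 ± 0.17) did not pass. IDI1, FDPS, FDFT1, NSDHL, HSD17B7, TMEM97 and ACSS2 lost their calls without 1 library. DKO against TFE3 KO, which adds TFEB loss, gave 4 members higher (11.1%, against 2.65% of all genes) and 1 lower (2.78%, against 2.22%). Those higher in DKO were MSMO1 (0.52 ± 0.15), INSIG1 (0.40 ± 0.12), SCD (0.32 ± 0.06) and HMGCS1 (0.25 ± 0.08), and SREBF2 was lower (-0.31 ± 0.09). Without 1 library only 1 to 3 of the 5 passed, and with the fit limited to the libraries compared 2 passed. SCD (limma adjusted p 0.000783) passed whichever library was left out. SQLE (0.32 ± 0.11), SREBF1 (0.18 ± 0.18), FASN (-0.14 ± 0.17) and LPIN1 (0.10 ± 0.11) did not pass.

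The summed levels show both branches by group. The 18 sterol-synthesis enzymes summed to 1845 ± 61.1 (SD, n = 3) in WT controls, 1501 ± 19.5 (n = 2) in HBSS and 951.9 ± 23.7 (n = 2) with Torin. They summed to 1116 ± 38.4 in TFE3 KO, 2067 ± 101 in TFEB KO and 1133 ± 16.2 in DKO controls, and to 669.7 ± 9.35, 1045 ± 31.3 and 736.7 ± 2.08 with Torin (n = 3 each). The 11 fatty-acid genes summed to 1835 ± 104 in WT controls, 2568 ± 24.1 in HBSS and 1455 ± 40 with Torin. In the edited genotypes they went from 1505 ± 40.9 to 1200 ± 13 in TFE3 KO, from 1989 ± 50.2 to 1616 ± 36.8 in TFEB KO and from 1512 ± 118 to 1294 ± 24.2 in DKO. The sterol and fatty-acid sums thus moved in opposite directions in HBSS and in the same direction with Torin. SCD carries much of the fatty-acid sum, and without it the sum was 1331 ± 84.2 in WT controls, 1633 ± 40.7 in HBSS and 1151 ± 30.1 with Torin. A sum is set by its most abundant genes, and HMGCS1 alone was at 438 to 465 in WT controls.

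**Figure D5:**
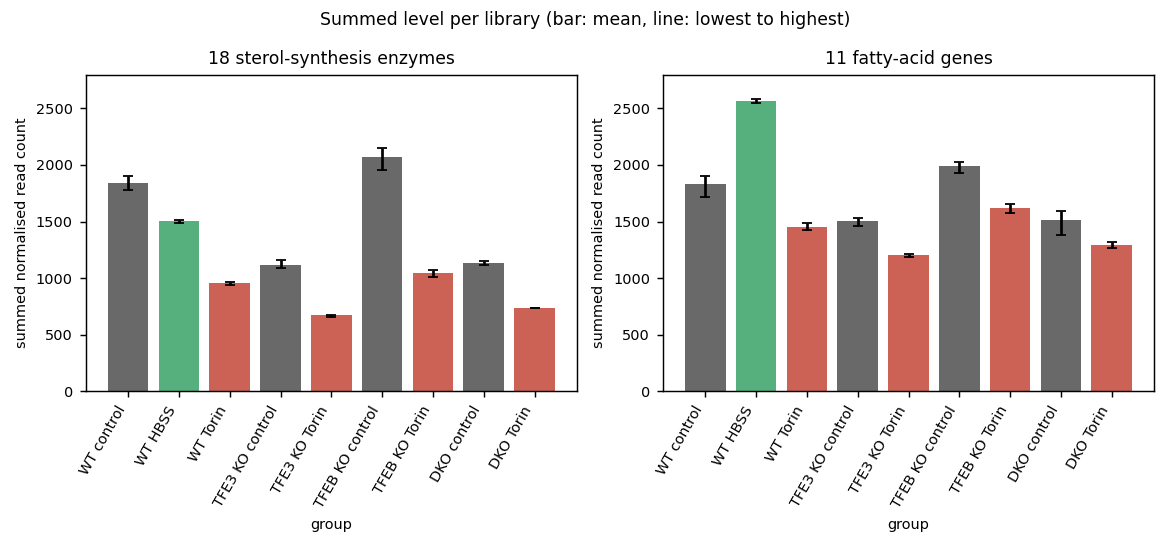
Sum of normalised read counts over 18 sterol-synthesis enzymes (left) and 11 fatty-acid genes (right) by group, with bars for the mean from 0 and lines from the lowest to the highest library, in grey for controls, green for HBSS and red for Torin. In HBSS the sterol sum (1487 to 1515) lies below and the fatty-acid sum (2551 to 2585) above that of the WT controls.

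Related genes of lipid metabolism outside the module were counted in lists chosen with earlier results known. In HBSS 23.6% of all genes rose and 24.7% fell, and with Torin 20.5% rose and 23.4% fell in WT. The shares with Torin were 25.4% and 26.0% in TFE3 KO, 17.4% and 21.0% in TFEB KO and 25.4% and 26.2% in DKO. Of 10 other genes of sterol and isoprenoid synthesis, 4 fell and 0 rose in HBSS, and 6 fell with Torin in each of the 4 genotypes while 1 rose in DKO.

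Of 20 other fatty-acid genes, 3 rose and 3 fell in HBSS, and those that fell with Torin numbered 9 in WT, 12 in TFE3 KO, 6 in TFEB KO and 7 in DKO. Over all the related lists, ELOVL4, an elongase of very long chains, had the lowest fold change in HBSS (-1.29 ± 0.29), followed by PCYT2 of phosphatidylethanolamine synthesis (-1.04 ± 0.23), and the choline kinase CHKA (1.33 ± 0.11, limma adjusted p 1.65e-14) and the glycerol-phosphate acyltransferase GPAM (1.10 ± 0.13) were highest. The naming took only the 2 highest and 2 lowest genes of each comparison, so that a gene not named in a genotype may have changed there. With Torin, malic enzyme ME1 fell in WT (-1.31 ± 0.31), LPCAT3, a phospholipid acyltransferase, in TFE3 KO (-1.22 ± 0.16), the electron donor POR in TFEB KO (-0.94 ± 0.14) and the sterol reductase LBR in DKO (-1.26 ± 0.09). DGAT2, which forms triglyceride, rose in all 4 genotypes (1.51 ± 0.32, 0.95 ± 0.28, 1.16 ± 0.28 and 1.09 ± 0.28), the lipin LPIN3 rose in WT (1.14 ± 0.18) and DKO (1.10 ± 0.16), and the acetyl-CoA carboxylase ACACB in TFE3 KO (1.51 ± 0.23) and TFEB KO (0.96 ± 0.23). Between HBSS and Torin, CHKA (1.87 ± 0.12) and MID1IP1 (1.56 ± 0.19) were higher in HBSS, and DGAT2 (-1.55 ± 0.35) and ERLIN2 (-1.31 ± 0.19) were lower.

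In the knockout controls 3.57% of all genes rose and 5.84% fell in TFE3 KO, 7.46% and 7.18% in TFEB KO and 5.64% and 7.49% in DKO. Of 10 genes of SREBP processing and turnover, 0 passed in TFE3 KO, 2 rose in TFEB KO (PAQR3, 0.83 ± 0.24, and C12orf49, 0.40 ± 0.09) and 1 rose in DKO (FBXW7, 0.35 ± 0.10). With Torin in WT 3 of them rose and 2 fell. Of the liver X receptor and sterol export list, 8 of 10 were in the table, 4 rose and 1 fell in HBSS and 2 rose and 2 fell with Torin in WT, and in controls 0 passed in either single knockout and 1 fell in DKO. Of 12 glycerolipid genes, 3 rose and 3 fell in HBSS, 2 rose and 4 fell with Torin in WT, and in controls 2 fell in TFE3 KO, 1 rose and 1 fell in TFEB KO and 1 fell in DKO. GPAM (-0.45 ± 0.12), AGPAT3 (-0.28 ± 0.09) and the citrate carrier SLC25A1 (-0.41 ± 0.11) were lower in TFE3 KO than in WT, AGPAT3 (-0.34 ± 0.09) was lower in DKO, and in TFEB KO ACSL5 was higher (0.80 ± 0.26) and AGPAT1 lower (-0.41 ± 0.10). ELOVL2 was lower in DKO than in WT (-2.54 ± 0.28), TFEB KO (-2.17 ± 0.28) and TFE3 KO (-2.58 ± 0.28). Between edited genotypes GPAM was lower in TFE3 KO than in TFEB KO (-1.03 ± 0.12) and AGPAT1 (0.67 ± 0.10) and MYLIP (0.54 ± 0.15) were higher. AGPAT1 (0.28 ± 0.10) and CYB5R3 (0.21 ± 0.08) were higher in DKO than in TFEB KO. In DKO against TFE3 KO, FBXW7 was higher (0.33 ± 0.10) and MYLIP (-0.82 ± 0.15) and AGPAT1 (-0.39 ± 0.10) were lower. The Torin response of SCD5 (1.39 ± 0.29) and LBR (0.52 ± 0.14) differed between TFEB KO and WT.

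Some members share sequence with other loci. Pseudogenes named after them are annotated for FDPS (8), IDI1 (3), CYP51A1 (3), HSD17B7 (2), TMEM97 (2), SCD (1) and ACSL3 (1), and reads could be shared with these copies. TM7SF2 and FADS2 overlap other genes on their strand, and ACAT2, FADS1 and MVK overlap neighbours on the opposite strand. The strand setting of the counting is not given in the sources used here, and the values of these genes are uncertain to that extent. Isoforms of SREBF1 cannot be told apart by 3′ reads.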

How the data were processed

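RNA from 25 libraries of 9 groups of 501mel cells was used, after 2 identical columns were left out of 27. Per the labels and the study's methods, reads were checked with FastQC 0.11.9, trimmed with cutadapt 2.10, aligned to hg38 with STAR 2.7.8a and normalised with edgeR. The counter, its strand setting and the scaling are not given in the sources used here. The deposited signal is a gene-level normalised read count. Its values were whole multiples of 1 step per library, within 0.01 of a step, and each step was taken as 1 read.

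The main test was limma 3.58.1 in R 4.3.3 (trend and robust variance) on log2(value + 1), in 1 fit over all 25 libraries, for the 13052 genes that reached 1 in 3 or more libraries, with Benjamini-Hochberg adjustment in each of 15 comparisons. It was first tested on simulated data. The settings varied were the pseudocount (0.1), the filter (none, or a minimum of 5), the scale, by rescaling by median-of-ratios factors, the tool, with edgeR 4.0.16 and DESeq2 1.42.0 on recovered reads, and the design, with the replicate number as a block, a fit of only the libraries compared, the identical column kept in either group, and leaving out each library. No intervals of counting error were computed.

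The members and lists were chosen with earlier results of these data known. Comparisons between edited genotypes were added after seeing the data. Named in every comparison were HMGCS1, SQLE, INSIG1, SREBF1, SREBF2, FASN, SCD and LPIN1, and up to 4 members past the test with the highest and 4 with the lowest fold change. For related lists these were the 2 highest and 2 lowest, and for interactions every member past the test. A result for 1 gene of the related lists is not reported here. Other genes named with values, such as LSS, CYP51A1 and TM7SF2 in comparisons where the rule did not take them, were chosen after their values were seen.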

Additional observations from a re-analysis of the deposited data

Results flagged for a closer look

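A difference in Torin response between an edited genotype and WT passed the interaction test in limma for 2 members. ELOVL6 had an interaction of 0.73 on the log2 scale in TFEB KO (limma adjusted p 0.0344), with Torin levels of 34 to 45.7 in TFEB KO and 21.6 and 22 in WT. CYP51A1 had an interaction of 0.50 in DKO (limma adjusted p 0.0399), with control levels of 77.9 to 79.3 in DKO and 126 to 133 in WT. With the identical column kept as WT Torin replicate 1, the limma adjusted p was 0.587 for ELOVL6 and 0.38 for CYP51A1.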

How the results depend on the processing

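Of 255 calls of members over all comparisons, none reversed under any alternative. Calls lost numbered 4 with a pseudocount of 0.1, 2 without a filter, 0 of the 252 still tested with a minimum of 5, 7 with rescaled values, 11 with edgeR, 7 with DESeq2 and 15 with only the libraries compared. The replicate block lost 3 calls and left 20 members past the test in HBSS against control and 27 in Torin against control in WT. Taken over all groups, same-numbered libraries did not deviate together (r -0.44 to 0.418, median 0.0286). Their r was over 0.1 in 20 of 92 pairs, against 31 of 185 pairs with different numbers. Same-numbered control and Torin libraries had a positive r in TFEB KO (0.0889, 0.0821 and 0.325) and in DKO (0.132, 0.142 and 0.348). In TFE3 KO it was -0.12, 0.0749 and -0.0788. The numbers thus show no pairing common to all groups, and a pairing within some genotypes was not tested. In DKO against TFE3 KO, 5 members passed, against 2 with only the libraries compared and 1 to 3 without 1 library. In HBSS against Torin, 15 passed with the identical column kept as WT Torin replicate 1 and 28 with it kept as WT HBSS replicate 3. For the interaction in TFEB KO, 1 member passed, against 2 with edgeR, 2 with DESeq2, 2 with only the libraries compared, 0 with the identical column kept and 0 to 2 without 1 library. For that in DKO, 1 passed, against 0 with edgeR, 0 with only the libraries compared, 0 with the identical column kept and 0 without any 1 library. Without 1 library the difference between the sterol and fatty-acid medians ranged from -0.61 to -0.41 for Torin in WT, from -0.46 to -0.12 for TFE3 KO and from 0.01 to 0.31 for the DKO interaction. The cause of these changes was not tested. With Torin in TFE3 KO, STARD4 had 2 to 11 reads per library and HSD17B7 had 3 to 5, and the effect of depth on their values was not tested.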
